A study of Mus musculus with 2 samples.

Results

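The 10 genes described here mark the urothelium, the stretchable epithelium that lines the renal pelvis, ureter and bladder. They are the uroplakin genes Upk1a, Upk1b, Upk2, Upk3a and Upk3b, the keratin genes Krt5, Krt15 and Krt20, the surface antigen gene Psca, and Trp63, which encodes the transcription factor p63. They were chosen by gene name, and every probe that carries one of these names in both scanner files was taken, which gave 12 probes for 10 of the 31821 gene names on the arrays. The RNA came from kidneys of mice aged 2 months, either Cnnm2fl/fl;Six2-Cre (knockout) or Cnnm2+/+;Six2-Cre (control), with no treatment named. Both genotypes carry the Six2-Cre transgene, so they share any effect of Cre itself. Knockout and control RNA were hybridized together on 2 arrays of 2 colours, with the knockout in Cy5 on array 1 and in Cy3 on array 2. How many mice gave each RNA is not given in the sources used here. Both arrays together were taken as a single replicate, so differences are described by their size and each SD below is that between the 2 arrays. The methods' t-test, which treats the arrays as replicates, is given only as an alternative.

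Uroplakins are membrane proteins of umbrella cells, the cells that face the urine. UPIa and UPIb, which belong to the tetraspanin family, pair with UPII and UPIIIa, and the pairs assemble into rigid plaques that make the surface a permeability barrier. UPIIIb can take the place of UPIIIa as the partner of UPIb, and Upk3b is also transcribed in mesothelium. Keratin 20 is a filament protein of umbrella cells, whereas keratin 5, keratin 15 and p63 are known from the basal cells of stratified epithelia. Six2 is active in the progenitors of nephrons, while the urothelium of the renal pelvis and the collecting ducts descend from the ureteric bud.

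A few probe sequences are given first, because a ratio on an array is that of 1 stretch of transcript. All are written in the sense of the mRNA, from 5′ to 3′, with positions on the mm9 build. The brightest probes of 3 members, Upk1a, Upk2 and Krt5, hold AATAAA, the canonical polyadenylation signal, on the sense strand, as do 12.6% of all probes on the arrays. The last 30 of the 60 bases of each are shown with this motif in capitals.
Upk1a, chr7:31388111-31388170, minus strand: gttggctggacacccAATAAAtactggctg
Upk2, chr9:44260822-44260881, minus strand: ctcttaactgtacttaattctcacAATAAA
Krt5, chr15:101537514-101537573, minus strand: tgacttcctccagagtctgtccAATAAAat

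The next probes lie elsewhere in their transcripts. That of Upk3a covers 902 bases of the genome with 60 bases of sequence, so it joins separate exons, and that of Psca starts at base 239 of its transcript. A second Krt5 probe starts at base 677 rather than 2119 of the transcript and was close to background in most channels. The brighter of both Trp63 probes carries 6 CAG units in a row, shown in capitals. A run of 4 or more CAG units is found in 11 of the 39429 probes (0.0279%), whose signals lay between percentiles 46.2 and 93.4 of all probes, with a median of 78.9.
Upk3a, chr15:84851819-84852720, plus strand: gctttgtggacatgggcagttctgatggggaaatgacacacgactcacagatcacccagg
Psca, chr15:74546879-74546938, plus strand: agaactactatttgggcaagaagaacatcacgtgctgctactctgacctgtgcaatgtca
Krt5, second probe, chr15:101542056-101542115, minus strand: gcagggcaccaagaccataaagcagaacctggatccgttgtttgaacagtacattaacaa
Trp63, brighter probe, chr16:25871159-25871218, plus strand: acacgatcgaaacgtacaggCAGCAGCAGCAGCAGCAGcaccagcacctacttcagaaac

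Most of the 10 transcripts gave a slightly higher signal in the knockout sample. All 5 uroplakin genes, all 3 keratin genes and Psca had a higher signal in the knockout than in the control channel under both labelings, which makes 9 of the 10 members. Of all 19708 genes compared, 12.1% were higher on both arrays and 15.6% were lower on both. No member was lower on both arrays. The changes were modest, with mean ratios from 1.02-fold for Trp63 to 1.83-fold for Upk1b, and 0 of the 10 members reached 2-fold in either direction. The background shares for this limit were 0.315% of genes higher and 0.284% lower. The median log2 ratio of the members was 0.58, against -0.01 over all genes compared, and 227 genes (1.15%) had a mean log2 ratio at or above that median. The members were chosen with earlier results of these data known, so their contrast with all genes is a description and not free of that choice. Under normexp background correction with loess normalization, which adds an offset of 50 to every signal, the median was 0.23. In RNA of a whole organ, more cells of a type and more RNA per cell cannot be told apart.

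**Figure D1:**
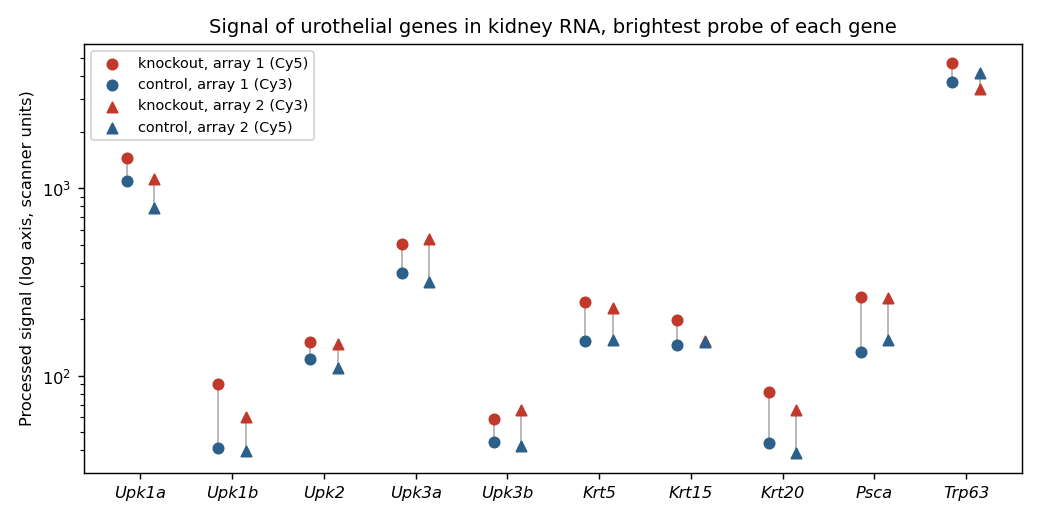
Processed signal (log axis, scanner units) of the brightest probe of each of the 10 genes, in knockout (red) and control (blue) channels of array 1 (circles) and array 2 (triangles), with a grey line joining the channels of an array. The knockout point lies above the control point on both arrays for all genes but Trp63, whose order turns between the arrays, and the Krt15 points nearly coincide on array 2 (154 and 152).

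The members differed widely in brightness. By the scanner software's call, all 10 were well above background in each of the 4 channels. Their mean log2 signals lay between percentiles 49.8 (Upk3b) and 88.6 (Trp63) of all probes, a position that also depends on the probe and gives no order of transcript abundance. Raw signals of the 3 dimmest, Upk1b, Upk3b and Krt20, lay between 93.3 and 204 over local backgrounds of 32 to 51.

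Among the tetraspanin uroplakins, Upk1a gave a processed signal of 1453 for the knockout against 1093 for the control on array 1, and of 1129 against 789 on array 2. Log2 ratios of knockout over control were thus 0.41 and 0.52 (mean 0.46 ± 0.07, SD), so the exchange of dyes hardly moved the 1.38-fold difference. The Upk1a probe was the brightest uroplakin probe, and its mean stayed between 0.43 and 0.48 with every background correction tried. Upk1b, the other tetraspanin, had signals of 90.0 and 41.1 on array 1 and of 60.2 and 39.4 on array 2. These give log2 ratios of 1.13 and 0.61 (mean 0.87 ± 0.37, SD). The control signals nearly repeated between the arrays, whereas the knockout signal was higher on array 1.

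Upk1b was the only member printed as 10 spots on each array, which shows the error within an array. On array 1, the scanner software marked 1 spot, which was left out, and the other 9 lay between 0.99 and 1.36 with a median of 1.08. On array 2, the 10 spots lay between 0.36 and 0.78 with a median of 0.63. The SD between spots was 0.12 on array 1 and 0.13 on array 2. The spots of the arrays did not overlap, so the arrays differed by more than the spots of an array. On each array, every knockout signal of a spot used (80.5 to 94.6 on array 1, 54.4 to 67.9 on array 2) exceeded every control signal (37.0 to 45.7 and 33.8 to 43.7). The spots of an array are repeats of 1 probe with the same RNA. Their separation thus describes the error between spots and is no comparison of replicates of the genotypes.

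**Figure D2:**
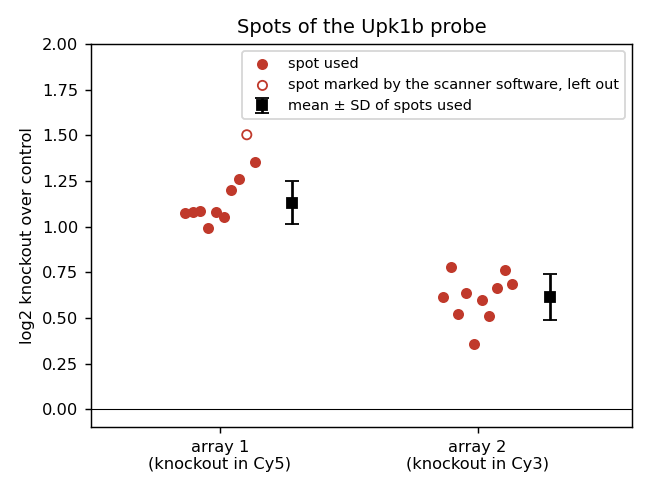
Log2 ratio of knockout over control for each spot of the Upk1b probe on array 1 (9 spots used, 1 marked by the scanner software and left out) and array 2 (10 spots), with squares and bars for the mean and SD of the spots used. All spots lie above 0, and those of array 1 (0.99 and higher) lie above those of array 2 (0.78 and lower).

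The partners of the tetraspanins had the same direction. Upk2, the partner of Upk1a, had knockout signals of 151 and 147 and control signals of 122 and 110.0 on arrays 1 and 2. Its log2 ratios were 0.30 and 0.41 (mean 0.36 ± 0.08, SD), the smallest mean of the 5 uroplakin genes. Upk3a, the partner of Upk1b, had signals of 506 and 353 on array 1 and of 535 and 315 on array 2. From these, log2 ratios were 0.52 and 0.76, and their mean was 0.64 ± 0.17 (SD), or 1.56-fold. Knockout signals of Upk2 and Upk3a lay above their control signals with no overlap across the arrays. The share of all genes compared without such overlap was not counted. Such a reading also sets channels of different arrays side by side, whereas each ratio pairs the channels of 1 array. Here and for the members below, it therefore only describes the values of a single replicate.

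Upk3b, the alternative partner, had knockout signals of 58.6 and 65.7 and control signals of 43.9 and 41.9, with no overlap. On the log2 scale, the ratios were 0.42 and 0.65 (mean 0.53 ± 0.17, SD). Because Upk3b is also a mesothelial transcript, mesothelial genes were looked at beside it. Of the 7 genes listed for mesothelium, 4 were compared, and their median log2 ratio was 0.09. Msln, which encodes mesothelin, had a higher signal in the knockout under both labelings (0.48 and 0.37), while Wt1, also a podocyte gene, was lower, with -0.13 and -0.59. Summed over the 4 genes, knockout signals were 6642 on array 1 and 4094 on array 2, against control sums of 4189 and 5583. Most of each sum came from Gpm6a, named after its values were seen, with knockout signals of 5367 and 3197 and control signals of 2888 and 4364. The sum thus followed the dyes as this 1 gene did, and says little of the other genes. Lrrn4, Muc16 and Bnc1 were not well above background. The part of mesothelium in the Upk3b ratio was not tested.

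Krt20 gave the largest mean ratio of the 3 member keratins with processed signals, though not with loess, where Krt5 was higher with normexp (0.35 against 0.22) and without it (0.52 against 0.50). Knockout signals were 81.4 and 65.7, and control signals 43.6 and 38.3. Log2 ratios of 0.90 and 0.78 gave a mean of 0.84 ± 0.09 (SD), or 1.79-fold. Psca encodes a small surface protein, held by a lipid anchor, that belongs to the Ly6 family and is expressed in urothelium. Its signals were 263 and 134 on array 1 and 259 and 155 on array 2, which gives log2 ratios of 0.98 and 0.74 (mean 0.86 ± 0.17, SD). Both knockout values of Krt20 and of Psca lay above both control values.

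Krt5, the keratin of basal cells, had knockout signals of 246 and 229 and control signals of 153 and 155 on the probe that holds AATAAA. The groups did not overlap, and the log2 ratios were 0.69 and 0.56 (mean 0.62 ± 0.09, SD). The second Krt5 probe gave 3.13 and 11.1 on array 1 and 15.6 and 2.68 on array 2. It was well above background in 1 of the 4 channels, that of the knockout on array 2, so no fold is given for it. Krt15, another keratin of basal cells, had signals of 197 and 146 on array 1 and of 154 and 152 on array 2. The ratio was 0.44 on the first array and 0.02 on the second (log2, mean 0.23 ± 0.30, SD), so the difference was within the spread of the arrays. With background-subtracted signals centred on the median, its ratio on array 2 was -0.01, and 8 members were then higher on both arrays.

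Trp63 stood apart from the other members. The brighter probe, with the CAG run shown above, had knockout signals of 4648 and 3396 and control signals of 3680 and 4134, which overlap. Its log2 ratios of 0.34 and -0.28 followed the dyes and had a mean of 0.03 ± 0.44 (SD). The dimmer Trp63 probe, whose listed start is base 4526 of another transcript of the gene, had signals of 66.9 and 40.1 on array 1 and of 30.9 and 38.8 on array 2. For this probe the log2 ratios were 0.74 and -0.33, so neither probe had the same direction on both arrays. Taking this probe instead, an alternative chosen after seeing the data, left the median of the members at 0.58 and the count of members higher on both arrays at 9.

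**Figure D3:**
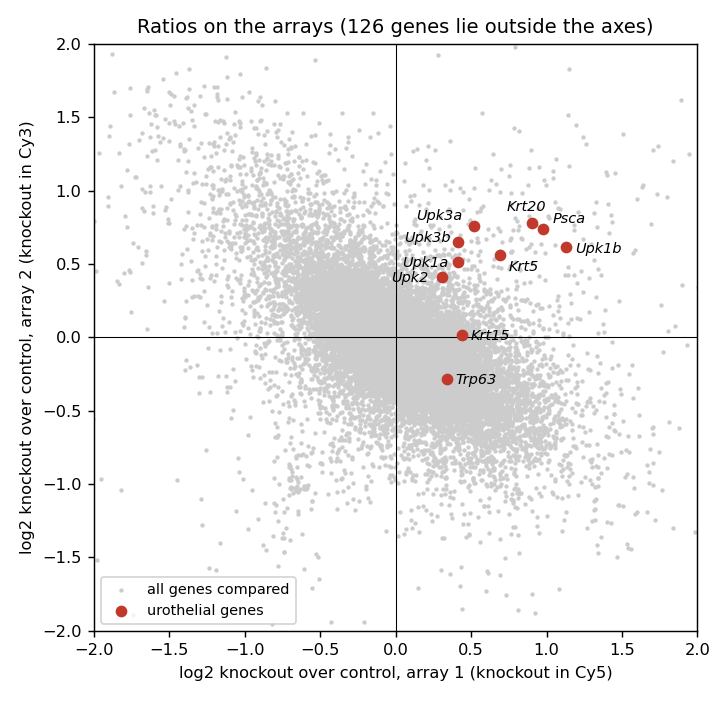
Log2 ratio of knockout over control on array 1 (horizontal) against array 2 (vertical) for all 19708 genes compared (grey, of which 126 lie outside the axes) and the 10 urothelial genes (red, named). Most grey points run from upper left to lower right, where the ratio follows the dye, while 8 of the named genes lie clearly at the upper right, above 0 on both axes, Krt15 on the edge of that field and Trp63 outside it.

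The order of the mean ratios ran Upk1b, Psca, Krt20, Upk3a, Krt5, Upk3b, Upk1a, Upk2, Krt15 and Trp63. Of the 9 pairs of neighbours in this order, 7 differed by less than the larger SD of the pair. The exceptions were Krt20 over Upk3a (a difference in log2 ratio of 0.20) and Upk1a over Upk2 (0.11), and the order of Krt20 and Upk3a turned with normexp and loess (0.22 and 0.45) and with loess alone (0.50 and 0.59). The mean log2 ratio of 8 members, all but Krt15 and Trp63, was above 0 by more than its own SD between arrays, and the same held for 8.93% of all genes compared. Ratios had the same direction on both arrays in 27.7% of all genes compared. Across all genes compared, which are no independent replicates, array 1 and array 2 had a Pearson's r of -0.51, so most ratios followed the dyes. The probe for Cnnm2, the deleted gene, was lower in the knockout on both arrays (log2 ratios of -2.88 and -2.46), as the labels require, and all 10 proximal tubule genes looked at were well above background, as the labelled tissue requires. The probes of Xist were not well above background in any channel, and the Y-linked Ddx3y, Eif2s3y and Uty were compared, each with opposite directions on the arrays.

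**Figure D4:**
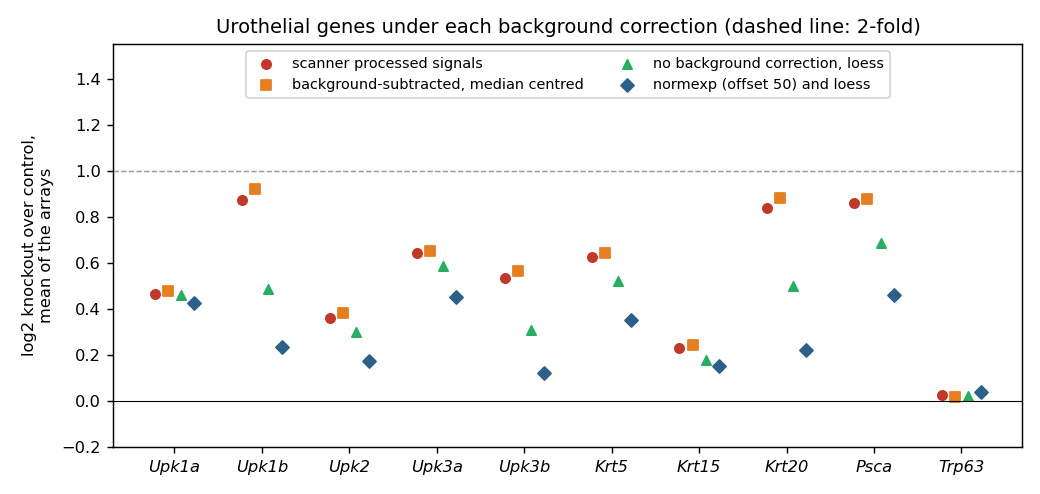
Mean log2 ratio of knockout over control of each urothelial gene with the scanner's processed signals (red circles), background-subtracted signals centred on the median (orange squares), no background correction with loess (green triangles) and normexp with loess (blue diamonds), with a dashed line at 2-fold. All points lie above 0 and below 2-fold, and Upk1b and Krt20 spread most, with Upk1b between 0.23 and 0.92.

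Mean ratios of the members other than Trp63 were smaller under both settings with loess, which change the background handling and the normalization together. With normexp and loess, the mean log2 ratio was 0.23 for Upk1b, 0.22 for Krt20 and 0.12 for Upk3b, whereas it was 0.45 for Upk3a and 0.46 for Psca. With no background correction it was 0.48 for Upk1b, 0.50 for Krt20 and 0.31 for Upk3b. The direction of these means was the same under each of these settings.

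Other genes known from urothelium were less uniform, and how much of their signal came from other cells of the kidney was not tested. Of 24 further genes listed for urothelium and its regulators, 20 were compared, of which 8 were higher on both arrays, 1 was lower and 11 had opposite directions. Of all 19708 genes compared, 12.1% were higher on both arrays, 15.6% were lower and 14250 genes had opposite directions. Their median log2 ratio was 0.16, and 0 were past 2-fold. The highest was the keratin gene Krt23, with log2 ratios of 0.70 and 1.15, and the lowest was Krt7, a keratin of simple and transitional epithelia, with -0.40 and 0.00. The other 7 that were higher, named here after their values were seen, were Krt18, Krt19, Grhl3, Foxa1, Klf5, Ly6d and S100a6. Foxa1, which encodes a forkhead factor of urothelial differentiation, had a ratio of 0.97 on array 1 and of 0.64 on array 2 (log2, mean 0.80 ± 0.23, SD). Krt19, a keratin found in all layers of urothelium, had 0.68 and 0.48, and Klf5, a zinc finger factor of epithelia, had 0.37 and 0.55. Grhl3, a grainyhead factor of umbrella cells, had 1.14 and 0.10, so its mean rests on array 1. Pparg, a nuclear receptor that promotes urothelial differentiation, was lower on both arrays, with -0.10 and -0.02. Among the 11 with opposite directions, also named after their values were seen, were Gata3 (-0.19 and 0.25), Elf3 (0.11 and -0.06), Ovol1 (-0.12 and 0.02) and Fgfr3 (-0.08 and 0.15).

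Basal epithelial cells attach through hemidesmosomes to laminin-332. Of 9 genes listed for this structure, 7 were compared, with a median log2 ratio of -0.08, 2 higher and 3 lower on both arrays. The shares over all genes compared were 12.1% higher and 15.6% lower. Lamb3, the β3 chain of laminin-332, was past 2-fold, with knockout signals of 280 and 217 and control signals of 136 and 102. Its ratio was 1.04 under one labeling and 1.09 under the other (log2, mean 1.06 ± 0.03, SD). The study listed Lamb3 among its changed genes from these same arrays, so it is no independent evidence. The lowest gene was Dst, which encodes dystonin, with -0.38 and -0.38.

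**Figure D5:**
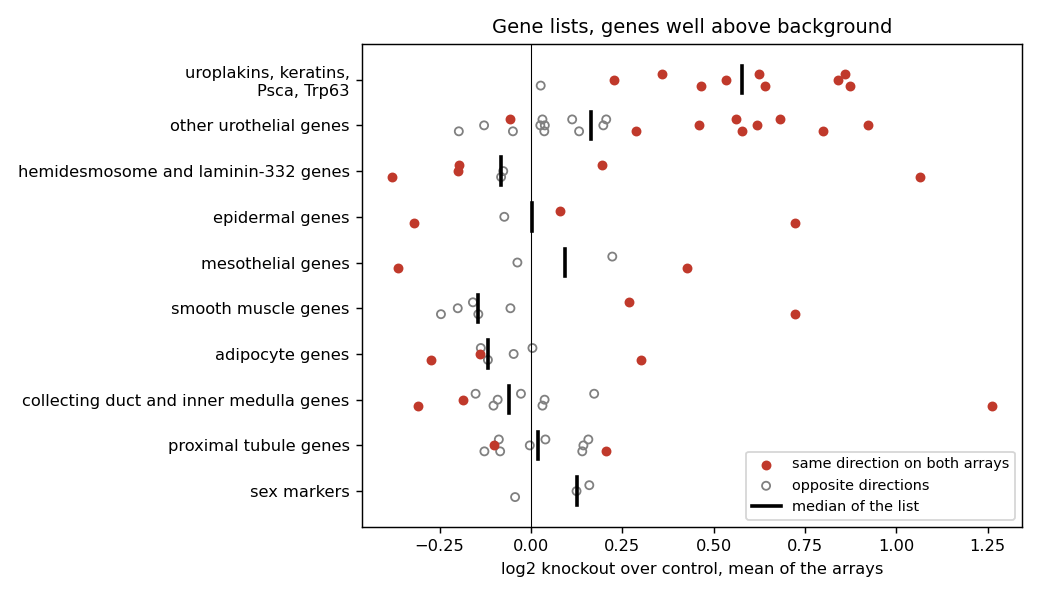
Mean log2 ratio of knockout over control (horizontal) of each gene well above background, by gene list, with filled points for genes that had the same direction on both arrays, open points for opposite directions and a black bar for the median. The uroplakins, keratins, Psca and Trp63 have the highest median (0.58), and the medians of the other lists lie between -0.14 (smooth muscle) and 0.16 (other urothelial genes). Medians on each array, not drawn, kept their sign for other urothelial genes (0.31 and 0.18) and hemidesmosome and laminin-332 genes (-0.15 and -0.01). In the remaining lists they had opposite signs, such as -0.44 and 0.15 for smooth muscle and 0.39 and -0.41 for mesothelium.

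Genes of smooth muscle and fat, tissues next to the urothelium, were taken along, since the share of renal pelvis or surrounding tissue in a dissected kidney can vary. Epidermal genes were looked at beside them. Of 8 smooth muscle genes, 7 were compared, with a median log2 ratio of -0.14. On both arrays, 2 were higher and 0 lower, against shares of 12.1% and 15.6% over all genes compared. Actg2, the enteric actin of visceral smooth muscle, was the highest, with log2 ratios of 0.43 and 1.02, while Myh11, smooth muscle myosin, was the lowest, with -1.09 and 0.60. Summed signals of these 7 were 13159 and 13081 for the knockout and 16521 and 12302 for the control. Most of each sum came from Smtn and Tagln, named here for their brightness (6252 and 4685 in the knockout on array 1). The sum says little of the dimmer genes. Of 10 epidermal genes, 4 were compared, with a median log2 ratio of 0.004, Sprr1a highest (0.56 and 0.88) and Flg lowest (-0.38 and -0.26). Krt1, a keratin of the suprabasal layers, and Ivl, which encodes involucrin of the cornified envelope, were not well above background. Summed signals of these 4 were 1694 and 1578 for the knockout and 1638 and 1213 for the control. They came mostly from Krt10, also named for its brightness, and Sprr1a (810 and 693 in the knockout on array 1). Of 8 adipocyte genes, 7 were compared, with a median of -0.12, between -0.27 for Cfd and 0.30 for Cidec.

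The collecting duct shares its origin in the ureteric bud with the urothelium of the pelvis. A list of 10 genes of collecting duct and inner medulla, thus not confined to the duct, was compared in full. Its median log2 ratio was -0.06. On both arrays, 1 gene was higher and 2 were lower, against 12.1% and 15.6% of all genes compared. By the brightest probe of each gene, the exception past 2-fold was Akr1b3, aldose reductase, with log2 ratios of 1.40 and 1.13. The study also listed Akr1b3 as changed. It listed Slc14a2, a urea transporter gene of this same list, as higher too, naming a transcript variant. The brightest Slc14a2 probe, the one used here, had log2 ratios of -0.20 and 0.02, and probes of single variants are not described here. The lowest gene was Scnn1g, a subunit of the epithelial sodium channel, with -0.36 and -0.26. The principal cell gene Aqp2, named after its values were seen, had -0.75 and 1.09, so it followed the dyes. Proximal tubule genes had a median of 0.02, between -0.13 for Cubn and 0.21 for Slc22a6. The part of dissection in the ratios of the urothelial genes was not tested, and with 1 replicate of each genotype it cannot be told apart from the genotype or from differences between mice.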

How the data were processed

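The authors deposited signal intensities of Agilent Feature Extraction for each array (version 10.7.3.1 in the file headers, 10.5.1.1 in the submitters' processing notes), given raw and as processed intensity, corrected for background, spatial trends and dyes. They also deposited log10 ratios, in the scanner files and in the matrix of the series, where they are turned to knockout over control.

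Here, log2 ratios of processed signals were turned to knockout over control by the dye labels. Marked spots were left out, spots of a probe averaged, and the brightest probe of each gene name used. A gene was compared (19708 genes) if its probe exceeded background, by the software's call, on each array in the same genotype. It counted as past the limit if both ratios had the same sign and their mean was 1 or more in size on the log2 scale. On simulated data with 19708 genes, this rule recovered 100% of 200 genes changed by a log2 ratio of 1.5, and the methods' t-test 46.5%. The simulated dye term was limited in size and cancelled in the mean, and the added noise was small. Recovery by the rule was therefore set by the design and only checks that the rule runs. Changes as small as those of the members were not simulated. The number of arrays limits the precision, and no spot for a gene was saturated. The members and gene lists were chosen with earlier results of these data known. Named beside the members were, of each list, the genes past the limit and those with the highest and lowest mean, unless stated otherwise.

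Alternatives were normexp or no background correction with loess (limma 3.58.1 in R 4.3.3), median-centred signals after plain subtraction of background (floor of 1), the deposited ratios, other limits on dim probes, marked spots kept, the median over probes, each array alone, 2-fold on each array, and the methods' t-test. Python 3.11.15 with numpy 2.4.6, pandas 2.3.3 and scipy 1.17.1 was used.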

Additional observations from a re-analysis of the deposited data

How the results depend on the processing

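With the alternatives listed above that used both arrays, 8 or 9 of the members were higher on both, against 12.1% of all genes in the main comparison. On a single array, 10 members were higher on array 1 and 9 on array 2. These are counts of direction on 1 array, and the share of all genes that meets this weaker condition was not counted. Under every alternative, 0 members were at least 2-fold lower. Array 1 alone put 1 member, Upk1b, past 2-fold. The median log2 ratio of the members ranged from 0.23 for normexp with loess, over 0.47 for uncorrected signals with loess and 0.48 for array 1, to 0.60 for background-subtracted signals. A contrast of dye against dye, added after the data were seen, gave a median of 0.063. It left 1 member on the higher side of both arrays, a count that turning the sign of an array fixes and that is no further check. Trp63 was the one member whose mean changed sign, to -0.28 on array 2 alone.

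Genes past 2-fold in the comparison numbered 62 higher and 56 lower. Normexp with loess left 7 higher and 8 lower, and uncorrected signals with loess 12 and 12. Dropping the limit on dim probes gave 232 and 179, and asking for both genotypes above background gave 37 and 27. Array 1 by itself gave 385 and 472, array 2 by itself 431 and 269, and 2-fold on each of them 28 and 20. The methods' t-test, which counts the 2 arrays as replicates, called 22 and 14 at its threshold and 0 and 0 after Benjamini-Hochberg adjustment, and 0 members at either step. The dye contrast put 143 and 341 past 2-fold.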
